A study of Mus musculus with 3 samples.

Results

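Microglia in G2 and M phase made up 5195 of the 22018 microglia gated in 3 single-cell libraries of fetal mouse brain, among 36354 cells that passed the cell filter. The filter kept cells with 500 or more genes detected and no more than 10% of mitochondrial UMIs (unique molecular identifiers, which count captured RNA molecules). A cell was gated as microglia when at least 3 of 6 microglial genes (P2ry12, Tmem119, Sall1, Siglech, Gpr34, Slc2a5) were detected, no Ccr2 UMI was present, and at most 1 of 5 border macrophage genes (Mrc1, F13a1, Cd163, Lyve1, Ms4a7) was detected. Cells in G2 and M phase were selected on the detection of at least 4 of 10 cycle genes, namely Mki67, Top2a, Cdk1, Ccnb1, Ccnb2, Birc5, Cenpf, Nusap1, Hmmr and Ube2c. These cells are called members, and the 16823 gated microglia with fewer of these genes are called other microglia. Because measured transcripts chose the members, every contrast of members with other microglia is a description and carries no test.

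The cells came from E18.5 fetal brain and were enriched with beads for CD11b, an integrin chain of myeloid cells. The groups, with 1 library each, were Gzmb-cko (genotype Ncr1-cre;gzmbf/f) with poly(I:C), Ncr1-cre with poly(I:C), and Ncr1-cre with saline. They are called the Gzmb-cko, Ncr1-cre poly(I:C) and saline libraries. Poly(I:C) is a double-stranded RNA made in the laboratory that imitates the RNA of a virus. All 3 groups carry Ncr1-cre, whose recombinase is active in natural killer cells and other innate lymphoid cells. The floxed gene, Gzmb, codes for granzyme B, which cytotoxic cells release to kill their targets. Mice were grouped as pregnant females. The sources used here do not give whether dam or fetus has the genotype, how many fetuses were pooled, or the dose and day of treatment. A Gzmb-cko library with saline was not analysed here, so a genotype difference without poly(I:C) and a changed response to it cannot be told apart. A single library per group allows no test between groups, and all intervals are exact 95% intervals that cover counting error only.

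The targeted gene Gzmb had 0 UMIs in members of every library, which allows up to 0.156 CPM (UMIs scaled to a class total of 1e6) in Gzmb-cko, 0.316 CPM in Ncr1-cre poly(I:C) and 0.193 CPM in saline. Over all kept cells it had 2 UMIs in Gzmb-cko, 127 in Ncr1-cre poly(I:C) and 61 in saline, while Ncr1 had 0, 6 and 8 UMIs in the same libraries. Fewer lymphoid cells and less Gzmb per cell cannot be told apart, and a 3′ tag outside the deleted part would check nothing. The Gzmb-cko, Ncr1-cre poly(I:C) and saline libraries held 15306, 14887 and 13820 barcodes, with 85442198 to 105574073 UMIs. The smallest barcode had 500 UMIs in both poly(I:C) libraries and 3133 UMIs in saline, so the lower limits of depth differed. Any pair of libraries shared between 63 and 71 barcodes. Hemoglobin transcripts, which come from red blood cells, made up 1.72% of the members' UMIs in Gzmb-cko, 3.82% in Ncr1-cre poly(I:C) and 7.96% in saline.

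A cell that has copied its DNA passes through G2, in which mitotic proteins accumulate, and then through mitosis, in which the duplicated chromosomes are condensed, attached to a spindle and pulled apart. Entry is driven by the kinase Cdk1 bound to the cyclins Ccnb1 and Ccnb2. Exit needs the anaphase promoting complex, which marks the cyclins for degradation with the help of Cdc20 and Ube2c. Genes of these steps are known to be repressed outside G2 and M phase through promoter elements bound by the DREAM complex, among them the CHR element, and activated through CCAAT boxes bound by NF-Y. Microglia, the resident macrophages of the brain, arise in the yolk sac and multiply in the fetal brain.

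The promoters of 5 genes of mitotic entry and exit are printed because the genes that mark members shared short promoter motifs. The windows run from 250 bases before to 50 bases after the start of transcription in RefSeq (build GRCm38.p6), 5′ to 3′ on the gene's strand. They lie at chr13:100786437-100786736 on the minus strand for Ccnb1, chr9:70421505-70421804 on the minus strand for Ccnb2, chr10:69352863-69353162 on the minus strand for Cdk1, chr4:118437294-118437593 on the minus strand for Cdc20, and chr2:164769679-164769978 on the plus strand for Ube2c. Capitals mark every match to TTTGAA, a core of the CHR element, and to CCAAT, on either strand.
Ccnb1: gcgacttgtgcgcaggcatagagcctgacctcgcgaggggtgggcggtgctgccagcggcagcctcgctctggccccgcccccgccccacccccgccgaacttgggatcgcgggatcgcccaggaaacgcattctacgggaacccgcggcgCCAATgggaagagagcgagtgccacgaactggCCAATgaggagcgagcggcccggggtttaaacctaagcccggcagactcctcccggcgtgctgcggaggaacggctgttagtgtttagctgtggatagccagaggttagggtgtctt
Ccnb2: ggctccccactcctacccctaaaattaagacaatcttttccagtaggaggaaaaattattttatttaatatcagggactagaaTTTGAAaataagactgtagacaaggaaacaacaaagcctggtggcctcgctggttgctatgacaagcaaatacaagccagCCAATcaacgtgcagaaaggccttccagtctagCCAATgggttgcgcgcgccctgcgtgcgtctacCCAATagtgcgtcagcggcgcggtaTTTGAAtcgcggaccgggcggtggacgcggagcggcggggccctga
Cdk1: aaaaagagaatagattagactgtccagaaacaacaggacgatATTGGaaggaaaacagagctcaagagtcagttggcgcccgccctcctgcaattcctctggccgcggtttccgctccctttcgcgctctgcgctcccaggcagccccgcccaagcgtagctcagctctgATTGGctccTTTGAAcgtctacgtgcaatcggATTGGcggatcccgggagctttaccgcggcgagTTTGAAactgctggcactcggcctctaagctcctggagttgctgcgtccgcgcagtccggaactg
Cdc20: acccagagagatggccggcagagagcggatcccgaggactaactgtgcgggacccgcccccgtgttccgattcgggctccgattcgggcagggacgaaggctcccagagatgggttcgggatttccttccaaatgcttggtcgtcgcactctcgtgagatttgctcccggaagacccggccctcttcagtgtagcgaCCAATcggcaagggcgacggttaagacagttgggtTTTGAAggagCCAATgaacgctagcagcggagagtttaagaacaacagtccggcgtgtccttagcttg
Ube2c: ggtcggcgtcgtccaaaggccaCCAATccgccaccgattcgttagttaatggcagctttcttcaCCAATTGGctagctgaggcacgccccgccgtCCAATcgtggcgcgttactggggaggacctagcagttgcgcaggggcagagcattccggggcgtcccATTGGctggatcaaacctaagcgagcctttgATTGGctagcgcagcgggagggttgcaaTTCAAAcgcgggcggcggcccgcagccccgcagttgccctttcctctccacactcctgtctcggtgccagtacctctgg
In Ccnb2 the CCAAT matches begin at positions -87, -54 and -21 from the start and the TTTGAA matches at -167 and 5. In Ccnb1 the CCAAT matches begin at -99 and -67, and TTTGAA was not found in this window.

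Of the 10 cycle genes of the rule, 7 held TTTGAA and 8 held CCAAT, against 20.2% and 41.1% of the 27025 genes with a window. The genes without TTTGAA were Ccnb1, Nusap1 and Birc5, of which Nusap1 and Birc5 also had no CCAAT. Of the 20 genes outside the rule with the highest ratio of members over other microglia, 17 had a window. TTTGAA was in 14 of these 17 and CCAAT in all 17, and 14 held both, against 7.97% of all genes. Of the 27 S phase genes with a window, 18 held CCAAT (66.7%), 4 held TTTGAA and 14 held TTCCCGC, a site of the E2F type. TTCCCGC was in 0 of the 10 rule genes and in 5.29% of all genes. Of the homeostatic microglia genes, 3 of 21 with a window held TTTGAA. All motifs were searched on both strands, and matches of different motifs that shared letters were each counted. A match is a description of letters, not a binding site.

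The share of gated microglia in G2 and M phase was highest in saline and lowest in Ncr1-cre poly(I:C). It was 23.9% in Gzmb-cko (1992 of 8323 cells, Clopper-Pearson interval 23.0 to 24.9%), 18.4% in Ncr1-cre poly(I:C) (1098 of 5971, 17.4 to 19.4%) and 27.3% in saline (2105 of 7724, 26.3 to 28.3%). The 3 intervals did not overlap. Spread between litters was not measured, so these are differences between libraries.

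Detection of 4 genes depends on how many molecules a cell yielded, and members were the deeper cells. Members had a median of 8475.5 UMIs in Gzmb-cko, 7735 in Ncr1-cre poly(I:C) and 6096 in saline, against 5819, 5291 and 4559 UMIs in other microglia of the same libraries. When every microglial cell was thinned to 2000 UMIs, the share was 15.1% in Gzmb-cko, 13.2% in Ncr1-cre poly(I:C) and 17.9% in saline, so the order held with smaller gaps. The order also held at 3 or 5 required genes, with a common lower limit of 3133 UMIs, and without cells that carried markers of other classes. At 8 or more genes the intervals of Gzmb-cko (12.99 to 14.48%) and saline (13.79 to 15.37%) overlapped, and at 9 or more the shares were 10.96% in Gzmb-cko, 8.59% in Ncr1-cre poly(I:C) and 10.02% in saline, so saline was no longer the highest.

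**Figure D1:**
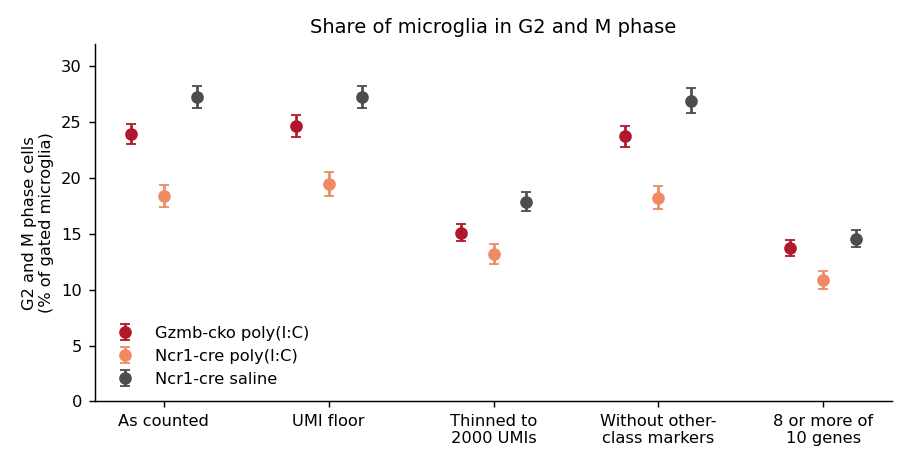
Share of gated microglia in G2 and M phase (vertical axis, %) in the Gzmb-cko poly(I:C), Ncr1-cre poly(I:C) and Ncr1-cre saline libraries, as counted and under 4 other settings along the horizontal axis. Points are single libraries and bars are exact 95% intervals for counting error. As counted the shares were 23.9%, 18.4% and 27.3%, and in each setting shown Ncr1-cre poly(I:C) was lowest and saline highest.

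The number of cycle genes detected per cell had 2 modes in every library, 1 at 0 genes and 1 at 10, with the lowest shares of cells at 5 or 6 genes. Just outside the threshold, 308 cells in Gzmb-cko, 214 in Ncr1-cre poly(I:C) and 336 in saline held exactly 3 of the genes. Just inside it, 237 cells in Gzmb-cko, 136 in Ncr1-cre poly(I:C) and 244 in saline held exactly 4. The threshold therefore lies on the falling side of the first mode. All 10 genes were detected in 6.66% of microglia in Gzmb-cko (6.13 to 7.21%), 5.44% in Ncr1-cre poly(I:C) (4.88 to 6.05%) and 5.04% in saline (4.56 to 5.55%). At this strictest end saline was the lowest library, and its cells were also the shallowest.

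**Figure D2:**
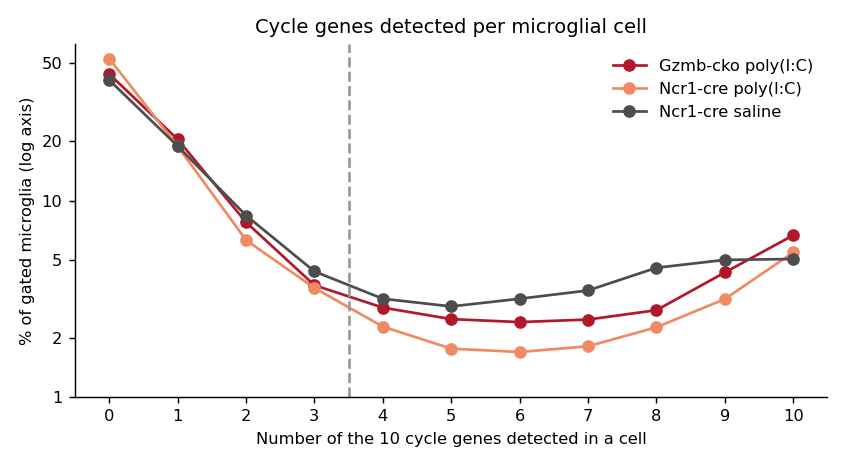
Percentage of gated microglia (vertical log axis) by the number of the 10 cycle genes detected in the cell (horizontal axis) for the 3 libraries, with a dashed line at the threshold between 3 and 4 genes. Cells with 10 genes were 6.66% in Gzmb-cko poly(I:C), 5.44% in Ncr1-cre poly(I:C) and 5.04% in Ncr1-cre saline, above the share with 6 genes in each library.

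Free RNA can place cycle transcripts in cells that do not divide. Cells with at least 4 of 6 choroid plexus genes, taken here as an epithelium that should rarely divide, served as the comparison. At least 4 cycle genes were detected in 1 of 289 of these cells in Gzmb-cko (0.346%), 7 of 325 in Ncr1-cre poly(I:C) (2.15%) and 16 of 190 in saline (8.42%, 4.89 to 13.3%). Their median depth was 4501 UMIs in Gzmb-cko, 5621 in Ncr1-cre poly(I:C) and 7023.5 in saline. The share in these cells was below that in microglia in every library and was highest in saline, and its part in the microglial shares was not tested. Cells with at least 3 neuronal genes gave 13.7%, 16.6% and 38.8% in these libraries, but that gate can also take in dividing progenitors.

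The order of the libraries was the same among cells of either sex. Among microglia with Xist and no Y-linked gene, 22.6% were in G2 and M phase in Gzmb-cko, 18.3% in Ncr1-cre poly(I:C) and 27.3% in saline. Among those with a Y-linked gene and no Xist, the shares were 26.7% (25.2 to 28.3%) in Gzmb-cko, 20.2% in Ncr1-cre poly(I:C) and 27.7% (25.8 to 29.6%) in saline. In these male cells the intervals of Gzmb-cko and saline overlapped. The sex mix of members differed between libraries. Cells with a Y-linked gene and no Xist were 44.6% of members in Gzmb-cko, 23.7% in Ncr1-cre poly(I:C) and 27.7% in saline. Those with Xist and no Y-linked gene were 31.4%, 53.8% and 41.8% in these libraries. Levels of genes in members were not split by sex, so the part of sex in those comparisons was not tested.

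The rule genes Mki67 and Top2a are given as a description. Mki67, a proliferation antigen, had 709.5 CPM in members of Gzmb-cko, 1170 CPM in Ncr1-cre poly(I:C) and 809 CPM in saline, against 14.3, 16.9 and 28.3 CPM in other microglia. Top2a, the topoisomerase that untangles chromosomes, had 728 CPM in members of Gzmb-cko, 956 CPM in Ncr1-cre poly(I:C) and 794 CPM in saline. Both were highest in Ncr1-cre poly(I:C), the library with the lowest share of members, but the rule genes did not share 1 order. Cenpf, Nusap1 and Hmmr were also highest there, while Cdk1, Birc5 and Ccnb2 were highest in Gzmb-cko. Cdk1 had 318 CPM in Gzmb-cko, 303 CPM in Ncr1-cre poly(I:C) and 238 CPM in saline. Ccnb1 and Ube2c were nearly equal in Gzmb-cko and Ncr1-cre poly(I:C). Late mitosis genes outside the rule are a description too, since they belong to the same programme as the rule genes. Their detection was not matched for depth here, and members were the deeper cells. Of 12 late mitosis genes (Cdc20, Plk1, Aurka, Cenpa, Cenpe, Kif20a, Kif23, Kif2c, Dlgap5, Tpx2, Bub1b, Pif1), at least 4 were detected in 74.5% of members in Gzmb-cko, 77.1% in Ncr1-cre poly(I:C) and 73.0% in saline. In other microglia this held for 0.411%, 0.390% and 0.463% of cells.

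Transcripts of DNA replication were present in many members. At least 4 of 10 S phase genes (Mcm3, Mcm5, Mcm6, Mcm7, Pcna, Tyms, Rrm2, Gins2, Ung, Slbp) were detected in 55.6% of members in Gzmb-cko, 48.8% in Ncr1-cre poly(I:C) and 43.6% in saline, against 21.4%, 17.0% and 18.1% of other microglia. DNA content was not measured, so cells late in S phase were not separated from cells in G2.

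With late mitosis genes counted at equal depth, their share was highest in the library with the lowest share of members. The members were still those chosen at full depth, which differed between libraries. Thinned to 2000 UMIs, at least 4 late mitosis genes were found in 30.4% of members in Gzmb-cko (28.4 to 32.5%), 37.9% in Ncr1-cre poly(I:C) (35.0 to 40.9%) and 28.7% in saline (26.8 to 30.7%). Thinned to 3133 UMIs, the shares were 48.8% in Gzmb-cko, 55.2% in Ncr1-cre poly(I:C) and 49.0% in saline. At either depth the interval of Ncr1-cre poly(I:C) lay above the other two, which overlapped. At least 2 of the 10 S phase genes were found at 2000 UMIs in 43.0% of members in Gzmb-cko, 42.8% in Ncr1-cre poly(I:C) and 37.5% in saline.

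Of 5813 genes with at least 20 CPM in every library, in members or in other microglia, 464 were at least 1.5-fold higher in members in all 3 libraries (7.98%) and 45 were at least 1.5-fold lower (0.774%). A ratio of at least 4 in all 3 libraries was found for 152 genes (2.61%), of which 142 lay outside the rule. The rule chose members on this contrast, so nothing is read from these counts.

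Among the 20 genes outside the rule with the highest ratios were kinesins and kinases of mitosis, a DNA helicase and replication-dependent histones. Pif1, the helicase, had 22.9 CPM in members of Gzmb-cko, 24.1 CPM in Ncr1-cre poly(I:C) and 23.3 CPM in saline, against 0.312, 0.344 and 0.327 CPM in other microglia, so its ratios were 73.6, 70.2 and 71.1. Aspm, a spindle pole protein, had ratios of 84.9 in Gzmb-cko, 154 in Ncr1-cre poly(I:C) and 66.5 in saline. Plk1, a kinase of mitotic entry and spindle assembly, had ratios of 86.0, 83.2 and 48.4 in these libraries. Next came the spindle midzone protein Prc1, the kinesins Kif14, Kif20a, Kif11, Kif23 and Kif4, the kinases Nek2 and Aurka, the kinetochore motor Cenpe, the cyclin Ccnf, the spindle protein Spag5, and Depdc1a and Fam64a. The smallest ratio among the 20 genes was 28.1, for Kif4 in saline. The remaining 4 were replication-dependent histones (Hist1h3c, Hist1h1b, Hist1h2ab, Hist1h2bn), whose near-identical copies make counting by gene uncertain.

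Genes lower in members were fewer and differed less. The 12 lowest included Itgam, which encodes CD11b itself and had 178 CPM in members of Gzmb-cko, 205 CPM in Ncr1-cre poly(I:C) and 180 CPM in saline, against 310, 367 and 311 CPM in other microglia. Itgam had ratios of 0.573 in Gzmb-cko, 0.561 in Ncr1-cre poly(I:C) and 0.580 in saline, close to each other in all 3 libraries. Adgrg1, an adhesion receptor of microglia, had ratios of 0.436, 0.475 and 0.476. The others were Dopey2, the glutamate transporter Slc1a3, Ecscr, the histone demethylase Kdm5b, the growth factor Tgfa, Lag3, Agmo, Eva1b, Tmem140 and Gm26778. The ratios of all 12 lay between 0.422 and 0.614.

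**Figure D3:**
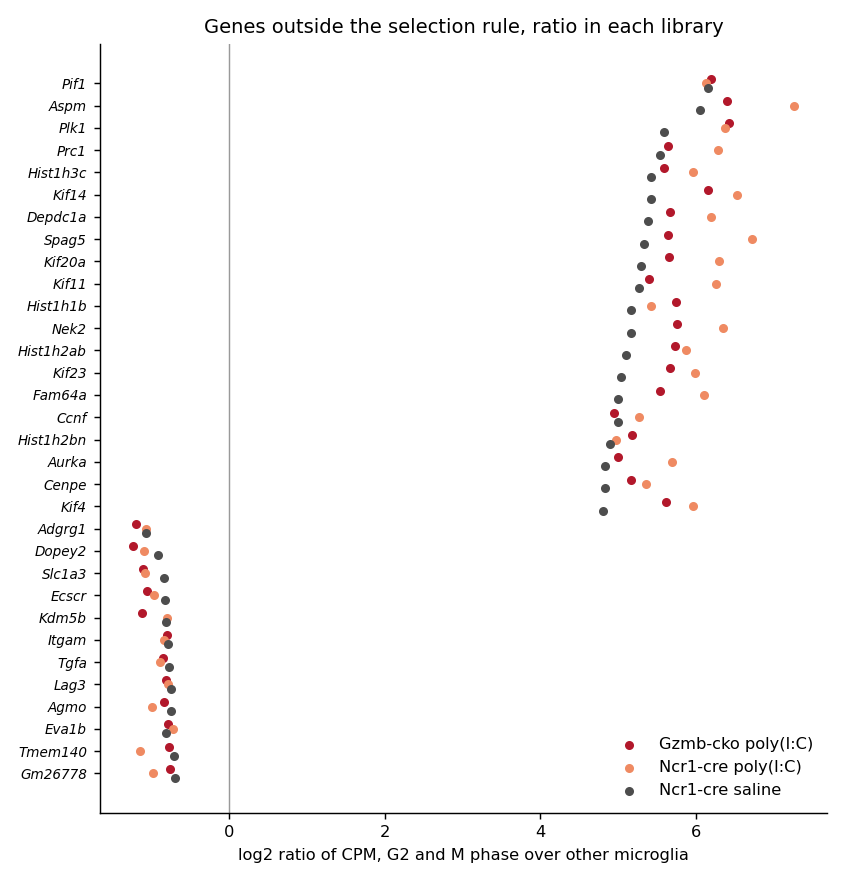
Log2 ratio of CPM in G2 and M phase microglia over other microglia (horizontal axis) for the 20 highest and 12 lowest genes outside the selection rule, 1 gene per line and 1 point per library. Among the higher genes saline is the lowest point for all but Pif1 and Ccnf, and the 12 lower genes have ratios between 0.422 and 0.614 in every library.

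Among gene lists other than the rule genes, the 12 late mitosis genes had the highest medians over other microglia. Their median log2 ratios were 4.64 in Gzmb-cko, 5.11 in Ncr1-cre poly(I:C) and 4.43 in saline. All 39 measured spindle and cytokinesis genes were higher in members of each library, against 57.1%, 57.7% and 56.8% of all genes. Their median log2 ratios were 4.17 in Gzmb-cko, 4.55 in Ncr1-cre poly(I:C) and 3.72 in saline, against 0.05, 0.06 and 0.05 over all 7953 genes with a mean of at least 10 CPM. Mitotic kinases and regulators (19 of 19 higher) had medians of 3.96, 4.19 and 3.78 in these libraries. Kinetochore and centromere genes (34 of 34) had medians of 2.92 in Gzmb-cko, 3.27 in Ncr1-cre poly(I:C) and 2.72 in saline. Ncr1-cre poly(I:C) was the highest of the 3 in each of these 4 lists. Chromosome condensation and cohesion genes (22 of 22) had medians of 2.04 in Gzmb-cko, 1.94 in Ncr1-cre poly(I:C) and 1.93 in saline. S phase genes were higher for 33, 33 and 31 of 35, with medians of 1.13, 1.06 and 0.80. Among transcription factors of the cycle, Foxm1, which activates mitotic genes, had ratios of 34.2 in Gzmb-cko, 51.2 in Ncr1-cre poly(I:C) and 27.4 in saline.

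Inhibitors of the cycle were among the higher genes too. Cdkn2c, an inhibitor of the G1 kinases Cdk4 and Cdk6, had 138 CPM in members of Gzmb-cko, 133 CPM in Ncr1-cre poly(I:C) and 95.5 CPM in saline, with ratios over other microglia of 13.4, 15.9 and 11.2. Cdkn3, a phosphatase that acts on cyclin-dependent kinases, had 60.9 CPM in members of Gzmb-cko, 64.0 CPM in Ncr1-cre poly(I:C) and 44.1 CPM in saline. Cdkn1b, an inhibitor of cyclin-bound kinases, differed less, with ratios of 1.71, 1.62 and 1.71 in these libraries. Over the 15 measured inhibitors and p53 targets the medians were 0.11 in Gzmb-cko, 0.14 in Ncr1-cre poly(I:C) and 0.10 in saline, near those of all genes.

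Most genes of microglial identity had slightly lower levels in members. Of 30 homeostatic microglia genes, none of them used by the rule, 2 were higher than in other microglia in Gzmb-cko, 3 in Ncr1-cre poly(I:C) and 5 in saline, with medians of -0.24, -0.23 and -0.19. Cx3cr1, the receptor through which microglia sense the neuronal chemokine Cx3cl1, was nearly equal, with 2131 CPM in members of Gzmb-cko, 2190 CPM in Ncr1-cre poly(I:C) and 2571 CPM in saline, against 2170, 2195 and 2570 CPM in other microglia. Inflammatory and NF-kB genes had medians of -0.35 in Gzmb-cko, -0.33 in Ncr1-cre poly(I:C) and -0.25 in saline.

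The genes whose detection followed the number of cycle genes most closely were Hist1h1b, Cenpa, Prc1, Cdca8, Tpx2, H2afx, Cenpe and Hist1h2ap. Pearson's r of their detection with that number lay between 0.510 and 0.673, over 8236 microglia in Gzmb-cko, 5765 in Ncr1-cre poly(I:C) and 7724 in saline, each thinned to 2000 UMIs. Cells of 1 library share its chemistry and free RNA, so these values are descriptions.

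Members were then compared between the Ncr1-cre poly(I:C) and saline libraries, which bears on how dividing microglia differ after maternal immune stimulation. Of 6265 genes that reached 20 CPM in the library with more and 100 UMIs over both, 302 were at least 1.5-fold higher in Ncr1-cre poly(I:C) (4.82%) and 93 were at least 1.5-fold lower (1.48%). The split depended on the scaling, since TMM factors gave 67 higher and 190 lower, so that 26.1% of the calls were higher in place of 76.5%. The median log2 ratio of the genes compared was 0.19 by class totals and 0.00 by TMM, and list medians are to be read against that shift. Without cells carrying markers of other classes 170 genes were higher and 91 lower.

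Histone transcripts gave some of the largest differences in single genes, in both directions. Hist1h1b, a linker histone made in S phase, had 621 CPM in members of Gzmb-cko, 1746 CPM in Ncr1-cre poly(I:C) and 655 CPM in saline. Ncr1-cre poly(I:C) stood alone, at a ratio over saline of 2.67 (2.60 to 2.73), or 2.36 under TMM. Other microglia had 11.6 CPM of Hist1h1b in Gzmb-cko, 40.8 CPM in Ncr1-cre poly(I:C) and 18.1 CPM in saline. The ratio of Ncr1-cre poly(I:C) over saline there was 2.25, so the difference was not confined to members. Hist1h2an had 19.4 CPM in Gzmb-cko, 66.1 CPM in Ncr1-cre poly(I:C) and 21.3 CPM in saline. Hist1h2ap had 323 CPM in Gzmb-cko, 264 CPM in Ncr1-cre poly(I:C) and 624 CPM in saline, 2.37-fold lower in Ncr1-cre poly(I:C) than in saline. It was 2.64-fold lower in other microglia. Over the 34 measured replication-dependent histones 17 were higher and 17 lower, against 77.6% and 22.4% of all genes. The list's median log2 ratio was -0.06 against 0.18 over all genes. Past 1.5-fold, 4 of the 34 were higher and 6 lower, against 5.22% and 1.35% of the 7953 genes with a mean of at least 10 CPM. These transcripts mostly lack the poly(A) tail that the library chemistry captures, and the copies share sequence.

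**Figure D4:**
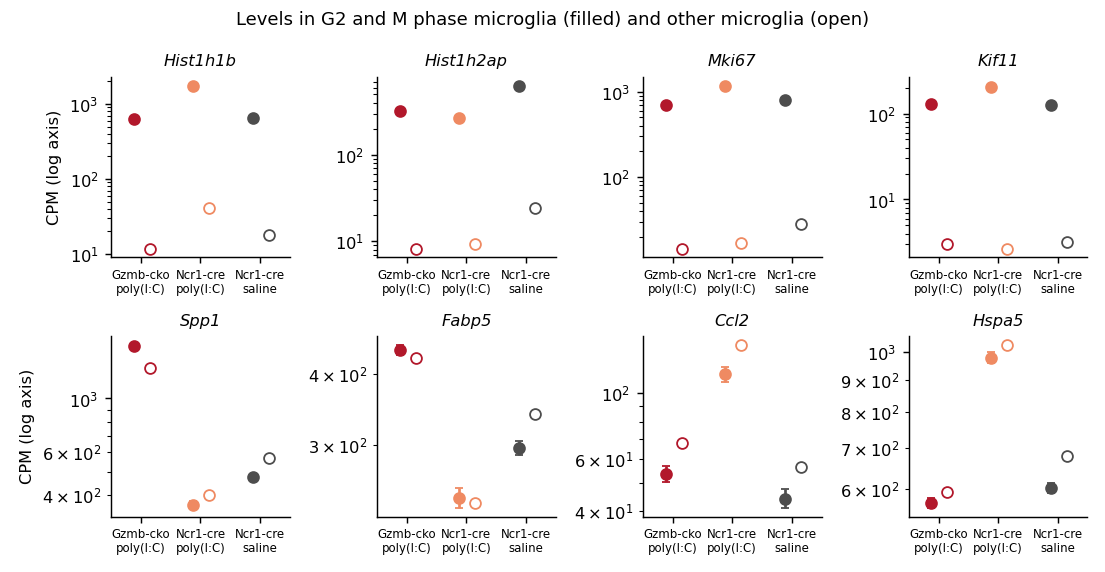
CPM (vertical log axis, scaled per gene) of 8 genes in G2 and M phase microglia (filled points with exact 95% Poisson intervals) and in other microglia (open points without intervals) in the Gzmb-cko poly(I:C), Ncr1-cre poly(I:C) and Ncr1-cre saline libraries. Hist1h1b was at 1746 CPM in members of Ncr1-cre poly(I:C), against 621 CPM in Gzmb-cko poly(I:C) and 655 CPM in saline, and Spp1 was at 1647 CPM in Gzmb-cko poly(I:C), against 365 CPM in Ncr1-cre poly(I:C) and 473 CPM in saline.

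Inflammatory transcripts were higher in members of Ncr1-cre poly(I:C). Ccl2, a chemokine that attracts monocytes, had 53.5 CPM in Gzmb-cko, 115 CPM in Ncr1-cre poly(I:C) and 44.2 CPM in saline. Its ratio of Ncr1-cre poly(I:C) over saline was 2.60 (2.36 to 2.87) in members and 2.56 in other microglia. Of 19 measured inflammatory and NF-kB genes 18 were higher, against 77.6% of the 7953 genes with a mean of at least 10 CPM. The list's median log2 ratio was 0.37 against 0.18 over all genes, and 6 of the 19 passed 1.5-fold, against 5.22% of all genes. Among these 6 were the NF-kB inhibitor Tnfaip3 (ratio 1.84), the cytokine Il1a (ratio 1.73) and the chemokine Ccl3 (ratio 1.71). In other microglia the list's median was 0.38.

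Stress lists had medians above that of all genes. Immediate early and heat shock genes, which also respond to tissue dissociation, were higher for 21 of 26, near the 77.6% of all genes. Their median was 0.37, and 7 of 26 passed 1.5-fold, against 5.22% of all genes, led by Zfp36 (ratio 1.89) and Fos (ratio 1.85). The median of the immediate early list was 0.53 in other microglia. ER chaperone and unfolded protein genes were higher for 19 of 20 with a median of 0.36, led by the stress phosphatase subunit Ppp1r15a (ratio 1.67). Hspa5, the main chaperone of the ER, had 569 CPM in Gzmb-cko, 979 CPM in Ncr1-cre poly(I:C) and 603 CPM in saline. Of 18 type I interferon genes 9 were higher, against 77.6% of all genes, with a median of -0.09 against 0.18 over all genes. Past 1.5-fold, 2 of the 18 were higher and 3 lower, against 5.22% and 1.35% of all genes. Cxcl10, an interferon-induced chemokine, had a ratio of 2.41, but 91.0% of its UMIs in Ncr1-cre poly(I:C) came from the 1% of members with most of it. Ifitm3, which blocks viral entry, was 2.26-fold lower in Ncr1-cre poly(I:C) than in saline, and 1.60-fold lower in other microglia. Of its UMIs in members, 41.6% in Ncr1-cre poly(I:C) and 36.6% in saline came from 1% of the cells. Without cells carrying markers of other classes it was 2.05-fold lower in members.

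Spindle and kinase genes lay above the shift of all genes, a median log2 ratio of 0.18, and other mitotic lists lay closer to it. Medians were 0.29 for condensation and cohesion (18 of 22 higher) and 0.23 for kinetochore and centromere genes (29 of 34). They were 0.23 for cyclins and Cks subunits (11 of 13) and 0.22 for the anaphase promoting complex (17 of 19). All 39 spindle and cytokinesis genes were higher in members of Ncr1-cre poly(I:C) than of saline, against 77.6% of all genes, with a median of 0.37. Of these, 7 of 39 passed 1.5-fold, against 5.22% of all genes, led by the kinesins Kif18b, Kif4 and Kif18a and the importin Kpna2. Of mitotic kinases and regulators 18 of 19 were higher with a median of 0.35. Bub1, a kinase of the spindle checkpoint, had 87.4 CPM in Gzmb-cko, 125 CPM in Ncr1-cre poly(I:C) and 66.8 CPM in saline, a ratio of 1.87 (1.72 to 2.04) over saline. S phase genes were higher for 32 of 35 with a median of 0.32, led by Dtl and the primase subunit Prim1. Under TMM the medians were 0.20 for spindle genes, 0.17 for the kinases and 0.15 for S phase genes.

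These medians depended on which members were summed. Among members with fewer than 4 of the 12 late mitosis genes the spindle median was 0.05 and that of the kinases -0.12, while among members with at least 4 of them they were 0.31 and 0.30. That split was made on transcripts of the same programme, since 5 of the 39 spindle genes and 3 of the 19 kinase genes are among the 12. Without those shared genes the medians were 0.08 and -0.025 in the first set of members and 0.35 and 0.35 in the second. In other microglia the spindle median was 0.14, over the 10 of its genes with a mean of at least 10 CPM there. Cdkn1b was also higher, with 59.7 CPM in members of Gzmb-cko, 83.2 CPM in Ncr1-cre poly(I:C) and 51.7 CPM in saline.

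Nuclear genes of oxidative phosphorylation went the other way, lower for 37 of 43, against 22.4% of all genes, with a median of -0.30. Atp5k, a subunit of ATP synthase, had 140 CPM in Gzmb-cko, 122 CPM in Ncr1-cre poly(I:C) and 235 CPM in saline, 1.93-fold lower in Ncr1-cre poly(I:C) than in saline. In other microglia the list's median was -0.34. Transcript length moved with this contrast, since the median log2 ratio was -0.27 over the 127 genes under 700 bases and 0.21 over the 4615 genes of 3000 bases or more. The part of length in these lists was not tested.

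Further genes among the 12 highest were Gng10, the sodium-calcium exchanger Slc8a1, Nutf2, Slc24a5, Phpt1, Tnks, Rgmb and Dynlt1c, with ratios between 1.99 and 2.52. Gng10, Nutf2, Phpt1 and Dynlt1c have near-identical copies, so their counts are uncertain. The genes lower by most were Stfa2l1, Stfa3, Wfdc21, BC100530, Stfa2, Hp, Pglyrp1 and S100a6, at 3.10- to 5.98-fold, most of which are known from neutrophils and their precursors. In saline between 48.2% and 85.0% of their UMIs came from 1% of members. The summed level of 10 neutrophil markers was 662 CPM in members of Gzmb-cko, 870 CPM in Ncr1-cre poly(I:C) and 3994 CPM in saline, and its part in these 8 genes was not tested. Without cells carrying markers of other classes the level of Stfa2l1 in saline was 8.38 CPM in place of 90.8 CPM and that of BC100530 48.9 CPM in place of 526 CPM. Without those cells Stfa2 was 2.08-fold lower in Ncr1-cre poly(I:C) in place of 3.91-fold, Hp 6.84-fold in place of 3.88-fold and Pglyrp1 6.49-fold in place of 3.87-fold, and all 8 were below 20 CPM in both libraries except BC100530 in saline. Cox6b2, a respiratory subunit, and Hist2h2aa1 were the last of the 12, at 2.48- and 2.19-fold lower.

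Members were also compared between the Gzmb-cko and Ncr1-cre poly(I:C) libraries, which bears on what differs when granzyme B is deleted in Ncr1-expressing cells. The Ncr1-cre poly(I:C) library serves in both comparisons. Of 6284 genes compared, 31 were at least 1.5-fold higher in Gzmb-cko (0.493%) and 119 at least 1.5-fold lower (1.89%). TMM factors gave 44 higher and 70 lower, so that 38.6% of the calls were higher in place of 20.7%. Without late mitosis cells the counts were 157 higher and 171 lower.

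Genes of disease-associated and axon-tract microglia were higher in members of Gzmb-cko. Spp1, the secreted phosphoprotein osteopontin, had 1647 CPM in Gzmb-cko, 365 CPM in Ncr1-cre poly(I:C) and 473 CPM in saline. Relative to Ncr1-cre poly(I:C), the ratio was 4.52 (4.36 to 4.68) in members and 3.36 in other microglia. Spp1 was detected in 41.3% of members in Gzmb-cko, 18.1% in Ncr1-cre poly(I:C) and 32.4% in saline. Of its UMIs, 51.6%, 78.0% and 54.1% came from the top 1% of members in these libraries, so a few cells carried much of its level. Gpnmb, a lysosomal glycoprotein, was 3.40-fold higher in Gzmb-cko than in Ncr1-cre poly(I:C), where only 24 members held it. The top 1% of members gave 65.8% of its UMIs in Gzmb-cko and 77.1% in Ncr1-cre poly(I:C). Other microglia had 17.7 CPM of Gpnmb in Gzmb-cko, 5.67 CPM in Ncr1-cre poly(I:C) and 20.2 CPM in saline. Igf1, a growth factor for neurons and myelin-forming cells, had 127 CPM in Gzmb-cko, 58.8 CPM in Ncr1-cre poly(I:C) and 76.7 CPM in saline.

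Of 24 measured genes of that list 22 were higher in Gzmb-cko, against 38.8% of all genes, and 7 passed 1.5-fold, against 0.503% of all genes. The median log2 ratio was 0.34 against -0.06 over all genes. The other 4 past that fold were the lectins Lgals1 (ratio 1.95) and Lgals3 (ratio 1.64), the lipid carrier Fabp5 (ratio 1.83) and the tetraspanin Cd9 (ratio 1.504). The list's median was 0.44 under TMM and 0.29 in other microglia. Markers of border macrophages summed to 487 CPM in members of Gzmb-cko, 413 CPM in Ncr1-cre poly(I:C) and 449 CPM in saline, and their part was not tested. The other genes among the 12 highest were Fabp3, Rtp4, Vat1, Tmem106a, Guca1a, the chemokine Ccl24 and the histone Hist4h4, with ratios between 1.67 and 1.93. Of the UMIs of Ccl24, 72.5% in Gzmb-cko and 52.4% in Ncr1-cre poly(I:C) came from 1% of members. Its ratio was 1.29 by averaged per-cell CPM and 0.95 in other microglia.

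Mitotic genes were mostly lower in members of Gzmb-cko than of Ncr1-cre poly(I:C). Spindle and cytokinesis genes were lower for 35 of 39, against 61.2% of all genes, with a median of -0.27. Kif11, the motor that separates the spindle poles, had 130 CPM in Gzmb-cko, 203 CPM in Ncr1-cre poly(I:C) and 124 CPM in saline, 1.57-fold lower in Gzmb-cko. Kif4, a chromosome-bound motor, had 77.8 CPM in Gzmb-cko, 127 CPM in Ncr1-cre poly(I:C) and 73.6 CPM in saline. For both motors Ncr1-cre poly(I:C) was the high library and the other two lay close together. Condensation and cohesion genes were lower for 21 of 22 with a median of -0.30, led by the cohesin subunit Stag2 at 1.53-fold. Kinases and regulators were lower for 16 of 19 with a median of -0.27, led by Wee1, which restrains Cdk1, at 1.70-fold. Kinetochore and centromere genes were lower for 27 of 34 with a median of -0.14, and cyclins and Cks subunits for 9 of 13 with -0.10. Genes of the anaphase promoting complex were lower for 11 of 19 with a median of -0.01. S phase genes were lower for 17 of 35, with a median of 0.03. Under TMM the medians were -0.17 for spindle genes, -0.20 for condensation and cohesion and -0.17 for the kinases.

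Replication-dependent histones were lower for 29 of 34, against 61.2% of all genes, with a median of -0.32. Of these, 10 genes were lower past 1.5-fold, against 2.24% of all genes. In Gzmb-cko, Hist1h1b was 2.81-fold lower (2.75 to 2.88), Hist1h2an 3.40-fold, Hist1h2ab 2.18-fold and Hist1h1e 2.16-fold. Hist1h1b was 3.51-fold lower in other microglia. Hist1h1e, a linker histone, had 263 CPM in Gzmb-cko, 569 CPM in Ncr1-cre poly(I:C) and 353 CPM in saline. Other microglia had 37.4 CPM of Hist1h1e in Gzmb-cko, 124 CPM in Ncr1-cre poly(I:C) and 49.6 CPM in saline. Among the rule genes Mki67 was 1.65-fold lower in Gzmb-cko, and the other 9 differed by less than 1.5-fold.

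**Figure D5:**
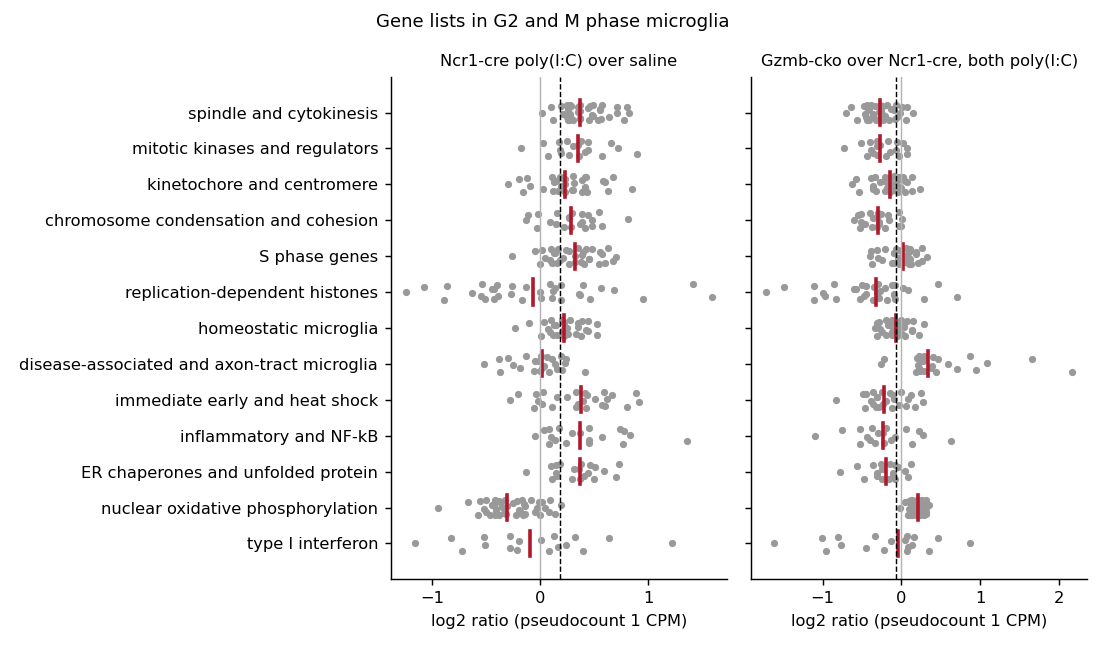
Log2 ratio of CPM (pseudocount 1) in G2 and M phase microglia for the measured genes of 13 lists, for Ncr1-cre poly(I:C) over saline (left) and Gzmb-cko over Ncr1-cre, both with poly(I:C) (right). Grey points are genes, red bars are list medians, and the dashed line is the median of all genes (0.18 left, -0.06 right). Spindle genes have a median of 0.37 on the left and -0.27 on the right, the disease-associated list has 0.01 and 0.34, and both panels use the Ncr1-cre poly(I:C) library.

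Stress and inflammatory lists had medians below that of all genes in members of Gzmb-cko, where 61.2% of all genes were lower. Inflammatory and NF-kB genes were lower for 14 of 19 with a median of -0.24, led by Ccl2 at 2.15-fold, while the chemokine Ccl9 was 1.56-fold higher. Immediate early and heat shock genes were lower for 20 of 26 with a median of -0.22. ER chaperone genes were lower for 17 of 20 with a median of -0.19, led by Hspa5 at 1.72-fold. Oxidative phosphorylation genes were higher for 42 of 43, against 38.8% of all genes, with a median of 0.21 and 0 genes past 1.5-fold. In other microglia these 4 medians were -0.23, -0.27, -0.23 and 0.25. Over all genes the median log2 ratio was 0.18 under 700 bases of transcript length and -0.14 from 3000 bases.

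Several of the genes lower by most in Gzmb-cko are known from the choroid plexus or from neural cells. Mia, Clu, Sostdc1, Igfbp2, Nedd4, Meis2 and Ccnd2 were 3.57- to 10.7-fold lower, and between 55.1% and 92.1% of their UMIs in Ncr1-cre poly(I:C) came from 1% of members. Choroid plexus markers summed to 1246 CPM in members of Gzmb-cko, 6539 CPM in Ncr1-cre poly(I:C) and 4688 CPM in saline. With cells carrying markers of other classes left out, Meis2 and the neuronal gene Map1b turned round to log2 ratios of 0.78 and 0.27. Without those cells Mia was 2.53-fold lower in place of 10.7-fold and Ccnd2 1.504-fold in place of 3.57-fold. Meis2, Map1b, Mia and Ccnd2 were then below 20 CPM in both libraries. Meis2 had 1.73 CPM in Gzmb-cko and 1.01 CPM in Ncr1-cre poly(I:C), and Map1b had 4.09 and 3.39 CPM. Hist1h1b was 2.97-fold lower without cells carrying markers of other classes. With all members counted, Cxcl10 was 3.24-fold lower. Of its UMIs, 92.6% in Gzmb-cko and 91.0% in Ncr1-cre poly(I:C) came from 1% of members.

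Markers of other classes were spread unevenly over the libraries. At least 3 markers of 1 other class, or over 1% hemoglobin UMIs, were found in 144 of 1992 members in Gzmb-cko (7.23%), 103 of 1098 in Ncr1-cre poly(I:C) (9.38%) and 399 of 2105 in saline (19.0%). In other microglia the shares were 6.22% in Gzmb-cko, 8.27% in Ncr1-cre poly(I:C) and 17.5% in saline. Within each library the intervals of members and other microglia overlapped. Members were more often among the highest doublet scores, with 23.3% in Gzmb-cko, 22.8% in Ncr1-cre poly(I:C) and 18.2% in saline, against 9.21%, 11.9% and 8.28% of other microglia. Their higher UMI totals move with this, and its part was not tested.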

How the data were processed

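The deposited files give raw UMI counts of 27998 genes in each barcode, which the authors did not normalise. Cell Ranger 5.0.0 is the writer per the file headers, but 3.0.1 is the version in the submitters' processing notes, which also name STAR and mm10. How barcodes were called as cells was not stated. The members, lists and tests were chosen with earlier results of these data known.

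For each library and class, counts were summed over cells and scaled to CPM of that sum, with exact 95% Poisson intervals for levels, conditional binomial intervals for ratios and Clopper-Pearson intervals for shares. For 0 UMIs a limit of 3 counts was used. Genes with 20 CPM in the higher library and 100 UMIs over both were compared, and a ratio of 1.5 was called. In each comparison of libraries, the text names the 12 largest called ratios per direction that had the same sign by TMM factors and by averaged per-cell CPM. That ranking skipped predicted genes, Xist, Y-linked genes, hemoglobins, ribosomal protein and mitochondrial genes, and markers of other classes. One gene of that ranking is not reported here. From the lists it names up to 4 genes by size; other list genes were chosen after their values were seen. Genes over other microglia were the 20 highest and 12 lowest by their least extreme library. List medians used genes with a mean of 10 CPM and a pseudocount of 1 CPM. Cells carrying markers of other classes were left out as an alternative added after the data were seen; its marker count leaves out border macrophage markers, S100a8, S100a9, Ttr, Vim, Dbi and hemoglobins. Of 665 listed genes 661 were matched, and Clec7a, Mx2, Ighm and Trbc2 were not analysed here. Transcript lengths came from GENCODE vM21, to which 27645 of 27998 IDs were matched.

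Scrublet in scanpy 1.11.5 called 0, 336 and 0 doublets in the Gzmb-cko, Ncr1-cre poly(I:C) and saline libraries, so the caller had not worked, and no doublets were removed. As an alternative, the highest scores were removed at an expected rate of 0.8% per 1000 barcodes. TMM factors came from edgeR 4.0.16 in R 4.3.3, and no count model was fitted. The ratios and intervals were tested on simulated Poisson sums, which the intervals assume. Those sums lack the clumping of UMIs in a few cells, so the intervals were not tested for it.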

Additional observations from a re-analysis of the deposited data

How the results depend on the processing

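The order of the shares, with saline highest and Ncr1-cre poly(I:C) lowest, was the same under 13 of 15 alternatives, and the values moved. It changed in the strictest 2, both added after the data were seen: with 9 or more cycle genes the shares were 10.96% in Gzmb-cko, 8.59% in Ncr1-cre poly(I:C) and 10.02% in saline, and with all 10 they were 6.66, 5.44 and 5.04%. In Gzmb-cko, Ncr1-cre poly(I:C) and saline, the shares were 27.6, 22.0 and 31.6% with 3 or more cycle genes, 21.1, 16.1 and 24.1% with 5 or more, 13.7, 10.9 and 14.6% with 8 or more, 21.0, 16.5 and 25.04% without the highest doublet scores, 15.1, 13.2 and 17.9% thinned to 2000 UMIs and 19.2, 15.9 and 22.2% thinned to 3133 UMIs. With all 6 microglial genes required they were 26.6, 19.0 and 30.9%. A stricter cell filter gave 19.5% in Ncr1-cre poly(I:C) and 28.7% in saline, a minimum of 3133 UMIs gave 19.5% in Ncr1-cre poly(I:C), and thinning to 2000 UMIs with 2 or more genes gave 19.4% in Ncr1-cre poly(I:C) and 28.3% in saline.

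For Ncr1-cre poly(I:C) over saline, genes higher and lower numbered 67 and 190 under TMM, 66 and 190 under median-of-ratios scaling, 131 and 174 with totals free of mitochondrial, ribosomal protein and hemoglobin genes, 1492 and 977 with 10 UMIs and no CPM minimum, and 457 and 143 without late mitosis cells, and 170 were higher without cells carrying markers of other classes. Between Gzmb-cko and Ncr1-cre poly(I:C), 70 were lower under TMM and 68 under median-of-ratios scaling, 157 were higher without late mitosis cells, and 520 were higher and 1573 lower with no CPM minimum. Without late mitosis cells 4 list medians of Ncr1-cre poly(I:C) over saline reversed, to -0.19 for late mitosis genes, -0.073 for cyclins, -0.12 for mitotic kinases and -0.0035 for kinetochore genes. Meis2 and Map1b reversed to log2 ratios of 0.78 and 0.27 in the comparison of Gzmb-cko with Ncr1-cre poly(I:C) without cells carrying markers of other classes. Both genes were then below 20 CPM in each of these libraries. The late mitosis split uses the late mitosis genes themselves. The cause was not tested for the others.

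Of the other list medians and settings 119 moved and 579 did not, and of the single-gene ratios 10 moved and 660 did not. No paired analysis was possible because each group has 1 library and the labels give no replicate numbers, and no library could be left out. Depth limits genes under 20 CPM and the detection of cycle genes in shallow cells.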
